A study of Mus musculus with 8 samples.

Results

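The samples described here are the 4 arrays titled as control shRNA, out of 8 in the series, and each holds the RNA of blood progenitor cultures from 1 mouse (mice 1 to 4). They were selected by their title, with earlier results of these data known. The mice carried the genotype Runx1 Δ/Δ, their strain was mixed C57Bl/6 and 129SvJ, and the source of the cells was marrow of the femur and tibia, depleted of lineage-positive cells. The labels call the cells HSPCs, haematopoietic stem and progenitor cells. They were grown for 2 days in serum-free StemSpan SFEM medium with stem cell factor (50 ng/ml), Flt3 ligand (100 ng/ml), interleukin-11 (100 ng/ml) and interleukin-3 (10 ng/ml). They were then infected with retrovirus made in Phoenix-GP packaging cells from pRS, a plasmid with a control short hairpin RNA, and selected from 24 h later with 5 µg/ml puromycin for 36 h. Every culture therefore shared the Runx1 deletion, the cytokines, the virus and the drug. The other 4 arrays, with another shRNA, were not used. No culture with intact Runx1 is part of the comparison, so no value below can be assigned to the loss of Runx1. The sources used here give neither the way Runx1 was deleted nor the age and sex of the mice.

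Many haematopoietic stem and progenitor cells carry the receptor Kit, and only some of them carry the receptor Flt3. As they mature, they commit to granulocytes, monocytes, mast cells, erythrocytes, megakaryocytes or lymphocytes. Stem cell factor and Flt3 ligand act on those receptors, interleukin-11 acts through Il11ra1 and gp130 (Il6st), and interleukin-3 acts through Il3ra with a beta chain and favours myeloid and mast cell growth. Runx1 is a DNA-binding transcription factor that pairs with Cbfb and controls the formation of blood stem cells, megakaryocyte maturation and lymphoid development.

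Each array carried 43379 non-control spots, of which the scanner software marked 54.8% to 62.0% as well above background, and 0 were saturated. Signals are given as log2 of the processed spot intensity minus the array's 75th percentile, so that 0 is the 75th percentile and 1 unit is a 2-fold step. A gene was represented by its brightest probe and counted as well above background on an array if any of its probes was, which is shortened to "seen" in places. A gene is called bright where it lay among the top 10% of probes on each of the 4 arrays, which began at log2 2.55 to 2.58. It is called dim where all 4 arrays showed it well above background with a mean below the lower quartile of such genes, at log2 -2.59, and middle in between. Brightness also depends on the probe: Actb, cytoplasmic actin, had a single probe at a mean of 0.78 while Gapdh lay at 7.35. The bands therefore class spots and do not rank transcripts, and in bulk RNA fewer cells of a type and less RNA per cell cannot be told apart.

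Of 17015 genes with a RefSeq symbol, 11441 (67.2%) were well above background on all 4 arrays. Of the same genes, 2812 (16.5%) were bright, 6622 (38.9%) middle and 2007 (11.8%) dim. A further 1633 (9.60%) were above background on 1 to 3 arrays, and 3941 (23.2%) on 0 arrays. The 20 brightest genes were mostly ribosomal protein genes, among them Rps18, Rpl7a and Rps2. They also held the ferritin chains Fth1 and Ftl1, the glycolytic enzyme Aldoa, and 3 genes tied to blood lineages or their lysosomes: Mpo at 8.98 ± 0.23 (SD, n = 4), the progranulin gene Grn at 8.88 ± 0.21 and the beta globin Hbb-bt at 8.54 ± 0.35. The brightest of the 20 was Lars2, with a single probe at 9.52 ± 0.20, and the histone gene H2ac1 lay at 8.42 ± 0.14. The 22 lists of lineage and pathway genes used below held 546 different genes, of which 514 were on the array. Counts by band in each list are to be read against the shares of all genes with a symbol given above.

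**Figure D1:**
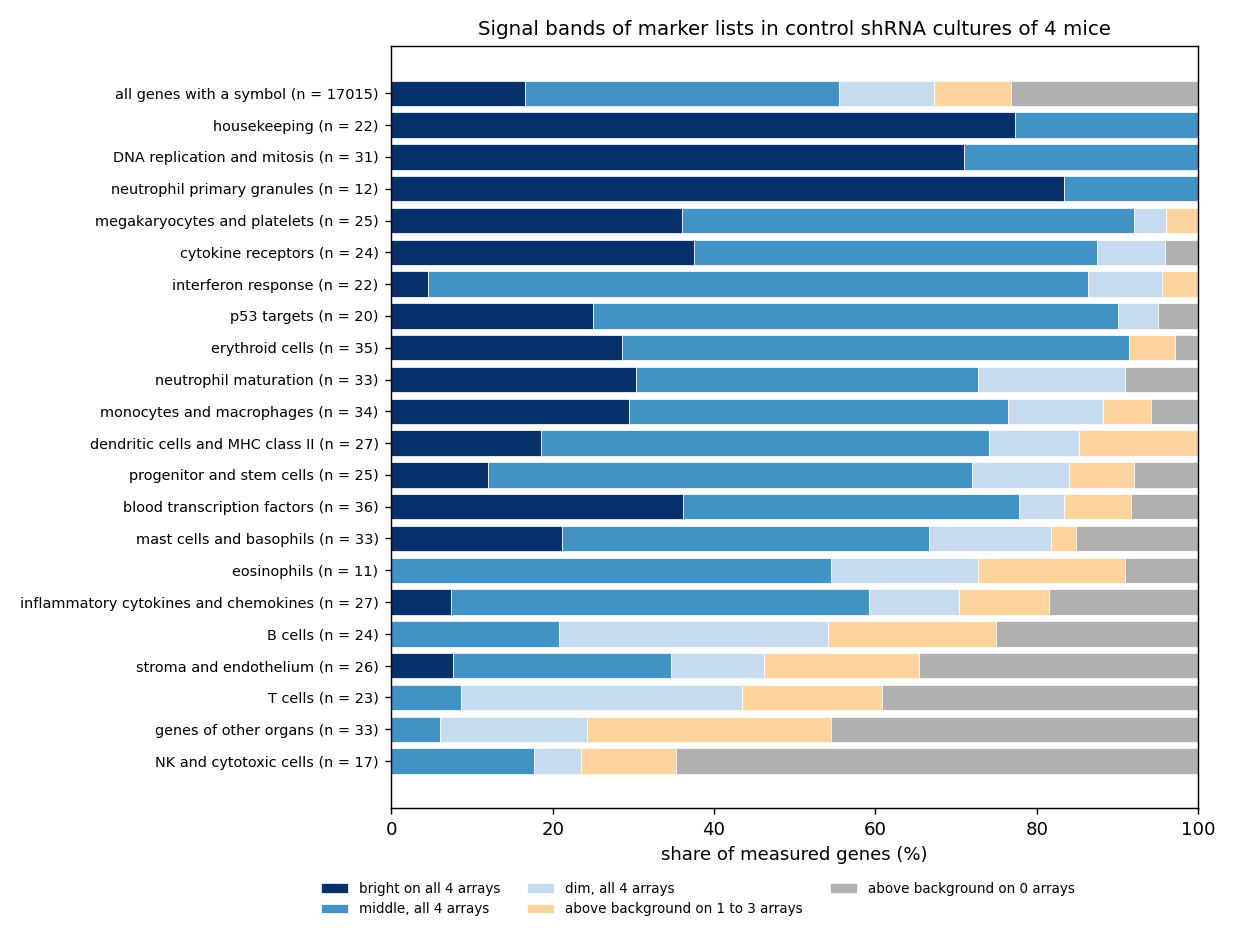
Share of the measured genes of each list (x axis, %) in each signal band over the 4 control shRNA arrays, with the number of measured genes beside each name. Neutrophil primary granule, housekeeping and DNA replication genes lay in the bright and middle bands alone, and most NK cell genes were above background on 0 arrays.

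The 4 mice were close to each other, with mouse 4 the farthest from the rest. Over 11431 genes well above background on all 4, the pairs among mice 1, 2 and 3 correlated across genes with r of 0.994 to 0.995, and the pairs with mouse 4 with r of 0.985 to 0.988 (genes are not independent replicates). Between 104 and 174 genes differed by 2-fold or more in a pair among mice 1 to 3, against 429 to 678 in a pair with mouse 4. Over all 4 mice 1020 genes (8.92%) spanned 2-fold or more, and 251 did so without mouse 4. Removing mouse 1, 2 or 3 in place of mouse 4 left 866, 906 and 791.

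Mouse 4 also stood apart in the genes of the sex chromosomes. Xist, the RNA that coats the inactive X chromosome, lay at -1.71, -2.01 and -1.82 in mice 1, 2 and 3 and at -7.81 in mouse 4, where it was not well above background. The Y-linked genes went the other way, with Eif2s3y, a translation initiation factor, at -7.77, -7.07, -7.85 and 2.12 in mice 1 to 4. Ddx3y and Kdm5d, a helicase and a histone demethylase, lay at -0.060 and -1.83 in mouse 4 and were not well above background in mice 1 to 3. As bounds against the dimmest signal that passed, Eif2s3y was at least 222-fold higher in mouse 4, and Xist at least 13.1-fold higher in mice 1 to 3. A bound sets the mean of the bright arrays against, for each dim array, the higher of its dimmest passing signal and the probe's own value. The fourth Y gene, Uty, was above background on 0 arrays. The sex of mouse 4 and everything else that set its culture apart cannot be told apart, so the results that follow give mouse 4 separately.

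Markers of the labelled cell type were partly well above background. Of 25 measured stem and progenitor genes, 21 were so on all 4 arrays, against 67.2% of all genes with a symbol. Bright were 3, against 16.5% of all genes, or 1 by the median of each gene's probes. Another 15 were middle and 3 dim, and their median level was -0.99 against -1.55 over all genes with a symbol. Cd34, a sialomucin of progenitors, was bright at 3.73, 3.87, 3.88 and 3.74 in mice 1 to 4, with no culture apart. Kit, the receptor of stem cell factor, lay at 1.49, 1.19, 1.19 and 1.33. Flt3, the receptor of the other early-acting cytokine in the medium, was dim, at -4.38, -5.07, -3.91 and -2.59.

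Cd93, a progenitor surface lectin that myeloid cells also carry, was bright at 5.05, 5.07, 4.98 and 3.93, and Cd48, which marks progenitors more than stem cells, averaged 3.72 ± 0.31 (SD, n = 4). Both were lowest in mouse 4. The second probes of Cd93 and Cd48 averaged 0.41 and 1.67. Ly6a, the Sca-1 antigen, averaged 0.51 ± 0.29. Slamf1 (CD150) and Esam, which are high on stem cells, were in the middle band and highest in mouse 4: Slamf1 lay at -1.18, -1.33, -1.34 and 0.16. Procr (EPCR) and Thy1, also used to mark stem cells, went the other way, with Procr at 1.33, 1.46, 1.29 and 0.14 and Thy1 at 1.32, 1.37, 1.75 and 0.99. Of the 21 genes seen on all arrays, 10 were highest and 4 lowest in mouse 4, against 34.0% and 37.7% of all such genes. Of the stem cell regulators, Mllt3 averaged 1.53 ± 0.52, Meis1 -2.38 ± 0.47 and Hoxa9 -2.01 ± 0.44, and Hlf was dim at -2.73 ± 0.60. Fgd5 and Hoxb5, used as reporters of long-term stem cells, were above background on 0 arrays, and Mecom on the array of mouse 3 alone. Of the same 21 genes, 12 spanned 2-fold or more between mice, against 8.92% of all genes seen on all arrays, or 3 without mouse 4.

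Transcripts of the deleted gene were still seen. Runx1, on chromosome 16, gave 0.94, 0.50, 0.82 and 0.54 with its single probe, in the middle band and well above background in every culture. The probe's position and the extent of the deletion are not known here, so this signal is no check of the genotype. Its partner Cbfb was bright at 4.26, 4.25, 4.44 and 3.95, while the other Cbfb probe averaged -0.57. The related factors Runx2, known for bone formation, and Runx3, known for T and NK cells, averaged 0.08 ± 0.14 and -0.65 ± 0.14 (SD, n = 4). Pcgf1, a Polycomb group protein, averaged -0.23 ± 0.18 in these control cultures.

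Of 36 measured blood transcription factors, 30 were well above background on all 4 arrays and 13 were bright, or 8 where the median of a gene's probes took the place of the brightest. Lyl1, a basic helix-loop-helix factor of stem cells and progenitors, was bright and even across mice at 6.46, 6.47, 6.53 and 6.43. Myb and Myc, which drive progenitor growth, were bright with SDs of 0.09. The erythroid and megakaryocytic cofactor Zfpm1 (FOG-1) lay at 5.44, 6.13, 5.51 and 6.60, and the repressor Gfi1b of the same lineages at 3.67, 4.29, 3.54 and 4.98. Both were highest in mouse 4 and next in mouse 2. Of the myeloid factors, Cebpd and Cebpb were bright, at 4.63 ± 0.30 and 3.24 ± 0.32, and Cebpa and Spi1 (PU.1) were in the middle band at 1.33 ± 0.27 and -0.02 ± 0.33. All 4 of these myeloid factors were lowest in mouse 4. Irf8, which is on the monocyte list too, was highest there, at 2.54, 2.64, 2.79 and 2.83. Of the 30 factors seen on all arrays, 14 were highest and 11 lowest in mouse 4, against 34.0% and 37.7% of all such genes. Pax5 and Ebf1, which commit cells to the B lineage, and Bcl11b, which does so for T cells, were above background on 0 arrays.

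Of the receptors for the cytokines in the medium, Flt3 was the dim one. Il11ra1, which binds interleukin-11, was bright at 4.22, 4.45, 4.36 and 4.03, and its signalling partner Il6st averaged 0.73 ± 0.25 (SD, n = 4). Il3ra, which binds interleukin-3, lay at 1.76, 1.56, 1.57 and 0.90. The beta chains Csf2rb and Csf2rb2 lay at 0.64 ± 0.41 and 5.15 ± 0.34, and the 2 genes are near-identical neighbours on chromosome 15, so their probes may share signal.

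Over the whole list, 23 of 24 measured receptors were well above background on all arrays and 9 were bright. Csf2ra, the GM-CSF receptor, was bright at 5.08, 5.13, 5.23 and 4.24. Csf1r, the macrophage growth factor receptor, was bright at 4.05, 3.95, 3.99 and 2.90. Both were lowest in mouse 4 with no overlap with the other 3. Epor, the erythropoietin receptor, was bright and highest in mouse 4, at 3.36, 4.11, 3.41 and 4.73. The interleukin-2 receptor chain Il2ra was above background on 0 arrays. As a list, the receptors had a median deviation from the mean of the mice of 0.16, 0.04, 0.09 and -0.23 in mice 1 to 4.

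Proteins of the primary granules, which neutrophil precursors make at the promyelocyte stage, had the highest median level of the lineage lists. All 12 measured genes were well above background on every array, 10 were bright, and the median was 6.37. Mpo, the peroxidase that makes hypochlorous acid, lay at 9.09, 9.11, 9.08 and 8.63. Ctsg, a serine protease, lay at 8.12, 8.10, 8.22 and 7.77. Mice 1, 2 and 3 coincided for both and mouse 4 was lower. Lyz2, lysozyme, averaged 8.22 ± 0.23 and Ms4a3, a membrane protein of granulocyte and monocyte progenitors, 6.02 ± 0.19. The proteases Prtn3 and Elane were at 3.05 ± 0.20 and 2.75 ± 0.31, the first bright and the second just under the bright limit in mouse 1. No member spanned 2-fold between mice, against 8.92% of all genes seen on all arrays. In mouse 4, 10 of 12 were lowest, against 37.7% of all such genes.

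The promoters of the 4 classical proteases and peroxidase of these granules are shown because their genes are textbook targets of PU.1, C/EBP and RUNX factors. Each line is the window from 250 bases before to 50 after the transcript start, 5′ to 3′ on the gene's strand, from RefSeq (GRCm38.p6). Capitals mark the letters GAGGAA, an ETS-type core bound by PU.1, and TGTGGT, a RUNX core, on either strand.
Mpo promoter, chr11:87793534-87793833, plus strand: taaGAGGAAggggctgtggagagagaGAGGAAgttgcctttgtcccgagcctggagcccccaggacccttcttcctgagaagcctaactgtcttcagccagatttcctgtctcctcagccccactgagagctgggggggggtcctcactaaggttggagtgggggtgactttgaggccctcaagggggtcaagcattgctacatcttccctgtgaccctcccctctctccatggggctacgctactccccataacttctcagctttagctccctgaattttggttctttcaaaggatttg
Elane promoter, chr10:79886062-79886361, plus strand: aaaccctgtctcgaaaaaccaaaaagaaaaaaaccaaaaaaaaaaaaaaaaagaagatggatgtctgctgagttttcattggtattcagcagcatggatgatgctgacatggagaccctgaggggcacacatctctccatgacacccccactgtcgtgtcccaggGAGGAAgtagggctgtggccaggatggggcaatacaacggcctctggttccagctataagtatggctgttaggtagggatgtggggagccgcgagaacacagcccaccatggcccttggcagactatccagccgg
Prtn3 promoter, chr10:79879417-79879716, plus strand: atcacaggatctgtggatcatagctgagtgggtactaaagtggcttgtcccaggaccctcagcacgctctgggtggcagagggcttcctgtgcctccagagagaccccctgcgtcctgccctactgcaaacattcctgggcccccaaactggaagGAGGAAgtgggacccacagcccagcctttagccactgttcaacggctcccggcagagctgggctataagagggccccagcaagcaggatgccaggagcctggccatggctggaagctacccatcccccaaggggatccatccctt
Ctsg promoter, chr14:56102525-56102824, minus strand: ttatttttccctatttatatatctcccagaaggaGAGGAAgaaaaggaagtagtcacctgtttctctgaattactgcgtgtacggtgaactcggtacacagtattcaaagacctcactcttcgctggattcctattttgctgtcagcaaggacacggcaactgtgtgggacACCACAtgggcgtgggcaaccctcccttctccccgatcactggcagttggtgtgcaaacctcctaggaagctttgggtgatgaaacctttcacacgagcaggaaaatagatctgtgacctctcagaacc

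The Mpo window held GAGGAA at 2 places, and the Elane, Prtn3 and Ctsg windows held it once each, 85, 95 and 216 bases before the start. Ctsg also held ACCACA, which is TGTGGT on the reverse strand, 79 bases before the start. The C/EBP letters TTGCNNAA were in none of these 4 windows. GAGGAA occurred in 28.3% of all 32851 windows of the same length, TGTGGT in 16.8% and TTGCNNAA in 10.8%, with both strands searched. The marked matches do not overlap each other. Of the 11 primary granule genes with a window, 7 held GAGGAA, 5 TGTGGT and 2 TTGCNNAA. In the bright band as a whole the shares were 25.2%, 13.1% and 9.45%. Shares above those of all windows were not particular to this list. GAGGAA was in 50% of T cell windows and TGTGGT in 57.1% of NK cell windows, while housekeeping windows held them in 17.6% and 5.88%. A match is a description of the letters and not a binding site.

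Genes of later neutrophil maturation were more spread out. Of 33 measured, 30 were well above background on all 4 arrays, with 10 bright, 14 middle and 6 dim. Chil3 and Slpi, a chitinase-like protein and a protease inhibitor, were bright at 7.05 ± 0.52 and 6.95 ± 0.49 (SD, n = 4). The other probe of Slpi averaged -7.80, so its bright call rests on 1 probe. S100a9, a chain of calprotectin, lay at 6.23, 6.79, 7.55 and 6.07, highest in mouse 3. Subunits of the phagocyte oxidase were present throughout, with Cyba at 5.02 ± 0.28, Ncf4 at 5.36 ± 0.38 and Cybb at 0.95 ± 0.22. Proteins of the secondary granules were divided. Ltf, lactoferrin, was dim at -4.65, -3.66, -2.10 and -2.72, and so were Camp and Ngp, at -2.89 ± 0.53 and -3.93 ± 0.74. Lcn2, lipocalin-2, and the collagenase Mmp8 were in the middle band, at 0.15 ± 0.43 and 1.00 ± 0.55. Mmp9, of the tertiary granules, and Retnlg, a product of mature neutrophils, were above background on 0 arrays.

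The maturation genes moved with the mouse. Of the 30 seen on all arrays, 19 were highest in mouse 3, against 21.4% of all such genes. Lowest in mouse 4 were 24, against 37.7%, and 0 were highest there, against 34.0%. The median deviation was 0.13, 0.10, 0.40 and -0.46 in mice 1 to 4. Over 4 mice 17 members spanned 2-fold, against 8.92% of all genes seen on all arrays, and over mice 1 to 3 there were 7.

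Monocyte and macrophage genes were as broadly present. Of 34 measured, 30 were well above background on all arrays and 10 were bright, or 16 without mouse 4 and 6 by the median of each gene's probes. Ctss, a lysosomal protease of antigen-presenting cells, lay at 5.88, 6.40, 6.04 and 4.83. Adgre1, the F4/80 antigen, lay at 4.50, 4.35, 4.55 and 3.49. Cd14, the lipopolysaccharide co-receptor, lay at 3.13, 3.05, 3.08 and 1.49. In each of them mouse 4 lay below the other 3, which were close together.

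F13a1 and Mpeg1, both abundant in monocytes, averaged 4.89 ± 0.39 and 4.77 ± 0.43, and Ccr2, the receptor that draws monocytes from marrow, -1.61 ± 0.43 (SD, n = 4). Cx3cr1, a chemokine receptor of later monocytes, was dim. The scavenger receptors Cd163 and Vsig4 of resident macrophages were above background on 0 arrays, and the complement gene C1qa on 1. Other macrophage genes were on all 4: the mannose receptor Mrc1 lay between -0.28 and 0.18, C1qb averaged -1.78 ± 0.38, and C1qc and the scavenger receptor Marco were dim at -3.10 ± 0.93 and -2.91 ± 0.25. Of the 30, 22 were lowest and 2 highest in mouse 4, against 37.7% and 34.0% of all genes seen on all arrays. The median deviation in mice 1 to 4 was 0.29, 0.22, 0.07 and -0.53. A 2-fold span was seen in 14 of the 30 over 4 mice, against 8.92% of all such genes, and in 2 over mice 1 to 3.

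Mast cell and basophil genes ranged from bright to not well above background. Of 33 measured, 27 were well above background on all arrays, against 67.2% of all genes with a symbol. Bright were 7, against 16.5% of all genes, with 15 middle and 5 dim. The bright members were Cpa3, Cma1, Hdc, Fcer1g, Alox5, Ptgs1 and Itga2b, the last also on the megakaryocyte list. Cpa3, the mast cell carboxypeptidase, was bright at 4.83, 4.93, 4.45 and 4.27. The chymase Cma1 was bright at 4.09, 4.47, 3.49 and 3.62, while its other probe averaged 1.97. Hdc, which makes histamine, averaged 3.20 ± 0.14 (SD, n = 4) and did not separate the mice. The IgE receptor alpha chain Fcer1a lay at -2.21, -1.64, -2.31 and -0.54 and its beta chain Ms4a2 was dim, at -3.67 ± 0.45. The tryptase Tpsb2 and the chymase-like Mcpt4 were in the middle band, at -1.49 ± 0.33 and -1.14 ± 0.33. The basophil proteases Mcpt8 and Prss34 averaged -0.74 ± 0.35 and -3.42 ± 0.93. The mucosal mast cell proteases Mcpt1 and Mcpt2 and the connective tissue mast cell receptors Mrgprb1 and Mrgprb2 were above background on 0 arrays. Median deviations of the list stayed between -0.10 and 0.06 in the 4 mice. A 2-fold span was seen in 4 of its 27 genes, against 8.92% of all genes seen on all arrays, or in 1 without mouse 4.

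Eosinophil granule genes separated the mice in pairs. Prg2, the major basic protein, lay at 2.53, 2.64, 3.76 and 3.88. Epx, eosinophil peroxidase, lay at -1.49, -1.68, -0.29 and 0.04. Rnase2a, an eosinophil ribonuclease, lay at -0.84, -1.02, 0.57 and 0.56. Mice 3 and 4 were above mice 1 and 2 in each, and Prg3 and Ear6 had the same order of pairs. Ear10 was above background in mice 3 and 4 alone.

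Not every gene of that lineage followed. Ccr3, the eotaxin receptor, and Il5ra, the interleukin-5 receptor chain, were dim with means of -4.01 ± 0.36 and -4.38 ± 0.20 (SD, n = 4) and were lowest in mouse 4. Of 11 measured eosinophil genes, 8 were well above background on all arrays and 0 bright, or 1 bright without mouse 1. The median deviation of the 8 was -0.56, -0.52, 0.49 and 0.71 in mice 1 to 4.

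Those pairs were also the slides: mice 1 and 2 shared 1 slide and scan, and mice 3 and 4 the other. A limma test of the second slide minus the first over 16664 genes called 0 at an adjusted p of 0.05 (0.00%), with 489 at an unadjusted p under 0.05 and 0.9995 as the lowest Benjamini-Hochberg adjusted p. Rnase2a differed by 1.49 on the log2 scale (SE 0.15, limma adjusted p = 0.9995) and Prg2 by 1.24. Leaving out mouse 3 raised the count to 476 and leaving out mouse 4 to 15, in fits with a lone array on the second slide that was assumed to vary like the others. With 2 mice a side, slide and mouse cannot be told apart, and having 4 arrays limits how precise any value here can be.

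Erythroid genes were in the bright and middle bands and had the largest median SD between mice, 0.62, of the lists with at least 10 genes seen on all arrays. Without mouse 4 it was 0.39. Of 35 measured, 32 were well above background on all arrays, 10 were bright and 22 middle. Hba-a1, alpha globin, was bright at 6.39, 7.22, 6.48 and 7.37. Klf1, the erythroid master factor, lay at 2.02, 3.54, 1.95 and 4.14. Car1, the erythrocyte carbonic anhydrase, lay at 1.03, 1.91, 1.03 and 3.11. Mice 1 and 3 were level in all 3 genes, mouse 2 was higher and mouse 4 the highest.

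Enzymes of haem synthesis had the same order. Urod and Alad were bright at 4.87 ± 0.51 and 4.15 ± 0.52 (SD, n = 4), and Alas2, the erythroid first step, lay at 0.91, 1.69, 1.27 and 2.10. Slc4a1, the band 3 anion exchanger, lay at 2.96, 3.78, 2.92 and 4.18, and Aqp1, a water channel, at 3.16, 4.10, 3.06 and 4.76. Of the embryonic globins, Hba-x was above background on 0 arrays and Hbb-bh1 on 3, while Hbb-y averaged -2.30 ± 0.28 and can share signal with other beta globins.

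Of the 32 erythroid genes seen on all arrays, 30 were highest in mouse 4, against 34.0% of all such genes, and 0 lowest there. The median deviation was -0.50, 0.17, -0.48 and 0.77 in mice 1 to 4. In all, 24 of the 32 spanned 2-fold over the 4 mice, against 8.92% of all genes seen on all arrays, and 5 over mice 1 to 3.

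Megakaryocyte and platelet genes were present with mouse 4 apart and mice 1 to 3 together. Of 25 measured, 24 were well above background on all arrays and 9 were bright. Pf4, platelet factor 4, was bright at 5.31, 5.17, 5.12 and 6.07. Ppbp, the platelet basic protein, lay at 2.11, 2.52, 2.13 and 3.85, and Gp1ba, a chain of the von Willebrand factor receptor, at 0.62, 0.68, 0.48 and 1.91. Itga2b (CD41), which mast cell progenitors also carry, averaged 3.45 ± 0.33 and Vwf itself 3.40 ± 0.13 (SD, n = 4). Of the 24, 20 were highest in mouse 4 and 2 lowest, against 34.0% and 37.7% of all genes seen on all arrays. The median deviation was -0.14, -0.15, -0.14 and 0.43. A 2-fold span was seen in 7 of the 24 over 4 mice, against 8.92% of all such genes, but in 0 over mice 1 to 3.

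**Figure D2:**
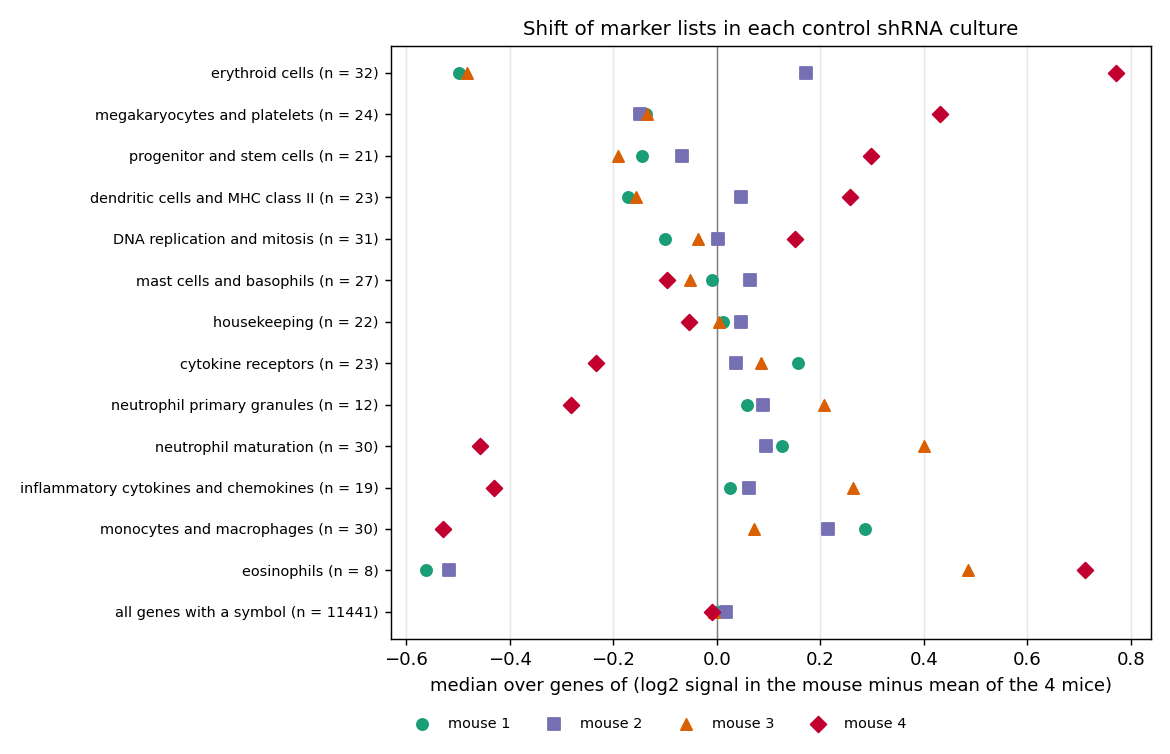
Median, over the genes of each list seen on all 4 arrays (n in brackets), of a mouse's log2 signal minus the mean of the 4 mice (x axis), 1 symbol per mouse. Mouse 4 lies at 0.77 for erythroid and 0.43 for megakaryocyte genes and at -0.53 for monocyte and -0.46 for neutrophil maturation genes, and all genes with a symbol lie near 0 in every mouse.

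B cell genes were middle or dim where they were seen. Of 24 measured, 13 (54.2%) were well above background on all arrays, against 67.2% of all genes with a symbol, with 0 bright, 5 middle and 8 dim, and the list's median level was -4.22. Cd22, a B cell lectin, was dim at -4.38 ± 0.40 (SD, n = 4), and Pax5, Ebf1, Rag2 and Ms4a1 (CD20) were above background on 0 arrays. Cd79b, a chain of the B cell receptor, averaged 0.62 ± 0.17, with its partner Cd79a on 3 arrays. Il7r, the interleukin-7 receptor, lay at 0.58, 0.84, 0.37 and -0.65 and was lowest in mouse 4.

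The B cell list as a whole had no common direction between mice. Of 13 genes seen on all arrays, 6 were highest and 5 lowest in mouse 4, against 34.0% and 37.7% of all such genes. The median deviation there was 0.08. Vpreb2 and Vpreb3, both genes of pre-B cells, were lowest in mouse 4, at -4.45 and -4.29. A few genes were far higher in mouse 4 and are named for that. Dntt, terminal transferase, lay at -2.59, -2.80, -2.70 and 0.85, a 12.6-fold span. Its second-brightest probe averaged -5.89, so these values rest on 1 probe. Spib, an ETS factor of B cells and plasmacytoid dendritic cells, lay at -3.58, -3.72, -3.83 and -0.86. Rag1, the recombinase, was above background in mouse 4 alone. Flt3, dim as a mean over the mice, was highest in mouse 4 too.

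T cell genes had a median level of -5.25, with 10 of 23 measured genes well above background on all arrays, 0 bright and 8 dim. Lat, an adaptor that megakaryocytes and mast cells use too, was in the middle band at 1.37, 1.72, 1.22 and 2.20. Cd3e and Cd4 were dim at -3.54 ± 0.13 and -3.94 ± 0.10 (SD, n = 4), and Cd3d, Cd3g and Cd8a were above background on 0 arrays. Of 17 NK and cytotoxic genes, 11 were above background on 0 arrays, among them Ncr1, Prf1 and Ifng, against 23.2% of all genes with a symbol. Gzmb, granzyme B, which mast cells make as well, was in the middle band at 1.72 ± 0.58.

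Genes of antigen presentation and dendritic cells were present on at least 1 array for every measured member. Of 27, 23 were well above background on all arrays and 5 were bright. Cd74, the invariant chain, lay at 3.90, 4.60, 3.88 and 4.71, and H2-Ab1, a class II beta chain, at 3.51, 4.34, 3.64 and 4.62. Mice 2 and 4 were above mice 1 and 3 in both. Cst3 and Bst2, which many myeloid cells express, were bright and even, with SDs of 0.06 and 0.07 (n = 4).

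Of the 23 genes seen on all arrays, 15 were highest and 6 lowest in mouse 4, against 34.0% and 37.7% of all such genes. In 2 of the 23 the gap of mouse 4 to the others passed Dixon's critical value, a limit for outlying values, with a 2-fold range. The same held for 0.901% of all genes seen on all arrays. Ly6d, a surface antigen of lymphoid progenitors, lay at -1.85, -2.06, -2.26 and 2.13, a 21.1-fold span. Ccr7, the receptor that guides dendritic cells to lymph nodes, lay at -1.65, -1.42, -0.79 and 1.17. Batf3 and Xcr1, of the cross-presenting subset, were lowest in mouse 4, with Batf3 at 0.97, 1.16, 1.17 and 0.06. Siglech, a lectin of plasmacytoid dendritic cells, was above background in mouse 4 alone, at -4.12, and so were Cd209a and Irf4. Of the 23 genes, 9 spanned 2-fold over 4 mice, against 8.92% of all genes seen on all arrays, and 0 over mice 1 to 3.

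**Figure D3:**
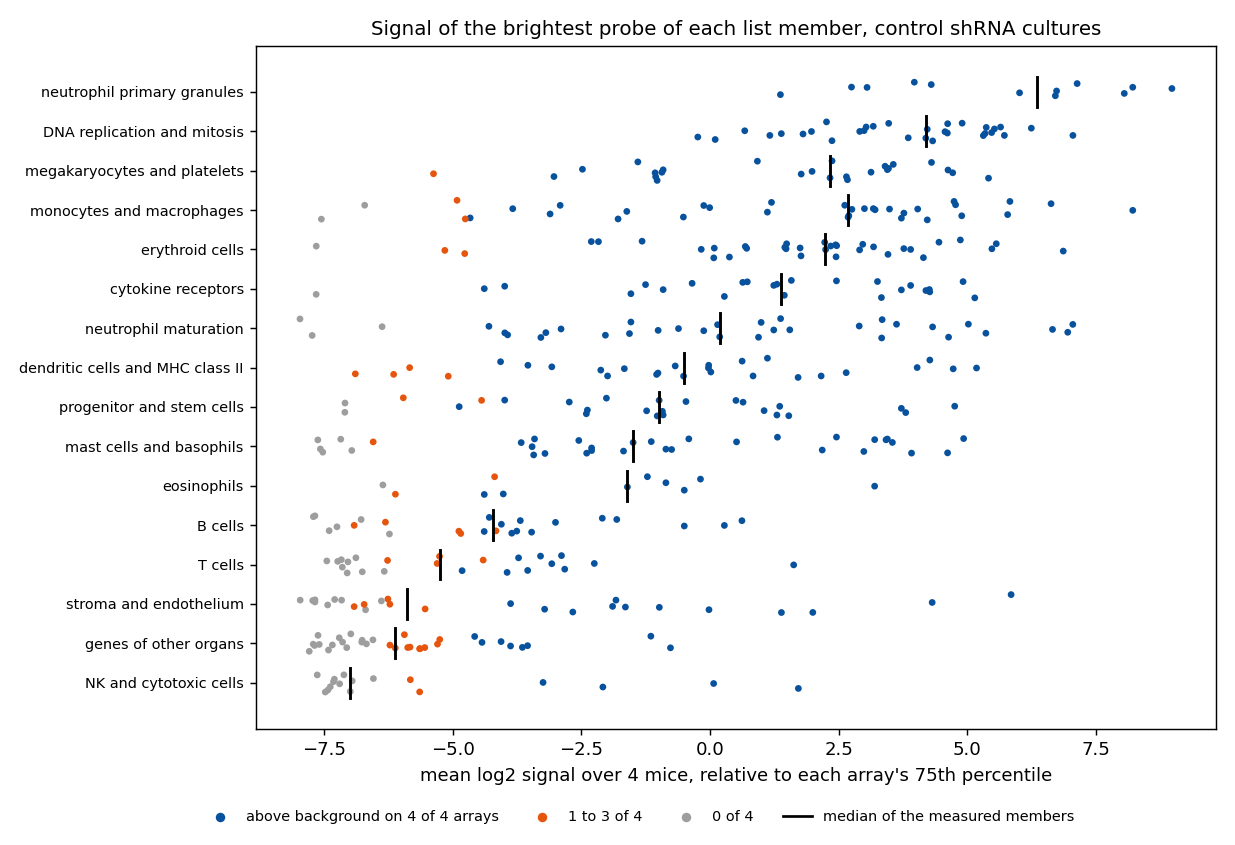
Mean log2 signal over the 4 mice of each measured list member (x axis, relative to each array's 75th percentile), coloured by the number of arrays on which it was well above background, with a bar at the list's median. Primary granule genes have their median at 6.37, B cell genes at -4.22 and NK cell genes at -6.99.

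Markers of stroma and of other organs were mostly dim or not well above background. Of 26 stroma and endothelium genes, 12 were well above background on all arrays, 2 were bright and 9 were on 0 arrays. The bright 2 were Spp1, osteopontin, which macrophages also secrete, at 6.13, 6.29, 6.21 and 4.78, and Acta2, smooth muscle actin, at 4.32 ± 0.15 (SD, n = 4). By the median of each gene's probes 1 of them was bright. The collagen Col3a1, the endothelial cadherin Cdh5, the leptin receptor Lepr and Pdgfra were on 0 arrays. Of 33 genes of other organs, 15 were on 0 arrays, among them Alb and Ttr, 8 were on all 4 and 0 were bright. Their median level of -6.11 shows where genes that blood cells should lack lie on these arrays. The highest was Pomc, at -0.77 ± 0.19, so a middle level of a single probe can occur outside blood lineages too.

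Genes of the cell cycle were high and even. All 31 measured genes of DNA replication and mitosis were well above background on every array, 22 were bright, and the median level was 4.20. Mcm6, a helicase subunit, lay at 7.00, 7.18, 7.06 and 6.97, Pcna at 6.12, 6.24, 6.22 and 6.40, and the mitotic activator Cdc20 at 5.52, 5.71, 5.60 and 5.75. No member spanned 2-fold, against 8.92% of all genes seen on all arrays, and the median SD was 0.13. By small amounts 24 of 31 were highest in mouse 4, against 34.0% of all genes seen on all arrays, with a median deviation of 0.15. Housekeeping genes had a median SD of 0.15 and deviations of -0.05 to 0.05.

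Of 20 p53 target genes, 19 were well above background on all arrays and 5 were bright. Bax and Bbc3 (PUMA), which promote cell death, averaged 4.18 ± 0.07 and 3.44 ± 0.20 (SD, n = 4), and Cdkn1a (p21), which stops the cycle, 2.71 ± 0.11. Gdf15, a secreted stress protein, lay at 2.19, 2.62, 2.37 and 1.12, lowest in mouse 4, and Phlda3, an inhibitor of Akt, at 2.85, 3.23, 3.01 and 4.02, highest there. Of the 19, 8 were highest and 6 lowest in mouse 4, near the 34.0% and 37.7% of all genes seen on all arrays, with a median deviation of -0.01. Of 22 interferon response genes, 21 were well above background on all arrays, mostly in the middle band, and 1 was bright, or 2 without mouse 4. The guanylate-binding Gbp2 averaged -0.67 ± 0.08 and Ifit1, which binds foreign RNA, was dim at -4.06 ± 0.36. No uninfected culture is among these samples, so these levels have no baseline to be set against.

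Of 27 measured cytokine and chemokine genes, 19 were well above background on all arrays. Bright were 2, Ccl4 and Tgfb1, or 1 with the normexp background correction. Ccl4 (MIP-1β) lay at 4.84, 4.69, 4.61 and 2.59, and Ccl2 (MCP-1) at 4.44, 4.24, 3.98 and 2.41. Csf1, the macrophage growth factor, lay at 1.51, 1.14, 1.19 and -0.54. Mouse 4 was below the other 3 in each. Of the 19, 12 were lowest and 2 highest in mouse 4, against 37.7% and 34.0% of all genes seen on all arrays. The list's median deviation in mouse 4 was -0.43. The genes for interleukin-3 (Il3), stem cell factor (Kitl), GM-CSF (Csf2) and G-CSF (Csf3) were above background on 0 arrays. Of the ligands supplied in the medium, Flt3l was in the middle band at -0.34 ± 0.23 and Il11 dim at -4.00 ± 0.16.

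Across genes with a symbol seen on all arrays, the SD between mice had a median of 0.16, and 0.11 without mouse 4. It fell with brightness, from 0.27 in the dim band to 0.16 in the middle and 0.11 in the bright band. For 144 probes printed many times on each array and seen on all 4, the SD within an array was 0.0709 and between mice 0.205, so most of the spread was between arrays. Each mouse gave a single array, so animal, culture and hybridisation cannot be told apart.

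A gene was counted as setting 1 mouse apart where the gap to the nearest other mouse passed Dixon's critical value for 4 samples and the range was 2-fold or more. The gap alone passed in 836 of 11431 genes (7.31%). Both held for 124 genes (1.08%): 6 in mouse 1, 8 in mouse 2, 7 in mouse 3 and 103 in mouse 4 (0.901%). Of the 103, 50 (0.437%) were highest and 53 (0.464%) lowest in mouse 4.

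The 20 genes with the largest SD held members of several kinds. Csta2, a stefin of myeloid cells, lay at -5.26 in mouse 1 and at 1.72, 3.02 and 1.94 in mice 2, 3 and 4. Ctse, the aspartic protease cathepsin E, lay at -1.29, -0.35, 1.95 and 4.07, with every mouse distinct. Naip5, a sensor of bacterial flagellin, lay at -2.37, -0.59, 0.54 and -3.79.

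Others set a single mouse apart. Gpr173, an orphan receptor, and Ncald, a calcium sensor, were highest in mouse 2, at 0.47 and -1.83, with the other 3 mice at or below -3.34 and -5.23. Plcb1, a phospholipase C, was highest in mouse 1 at -1.76. Cd7, an antigen of early lymphoid cells, lay at -3.11, -3.42, -3.37 and -0.50, and Ly86 (MD-1) and Sema6d were also highest in mouse 4. The second-brightest probes of Gpr173, Ncald, Plcb1 and Sema6d averaged -7.56, -5.64, -7.19 and -7.30, so their values rest on 1 probe each. Stefin and Naip genes belong to families of near-identical copies, so the values of Csta2 and Naip5 may hold signal from relatives.

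**Figure D4:**
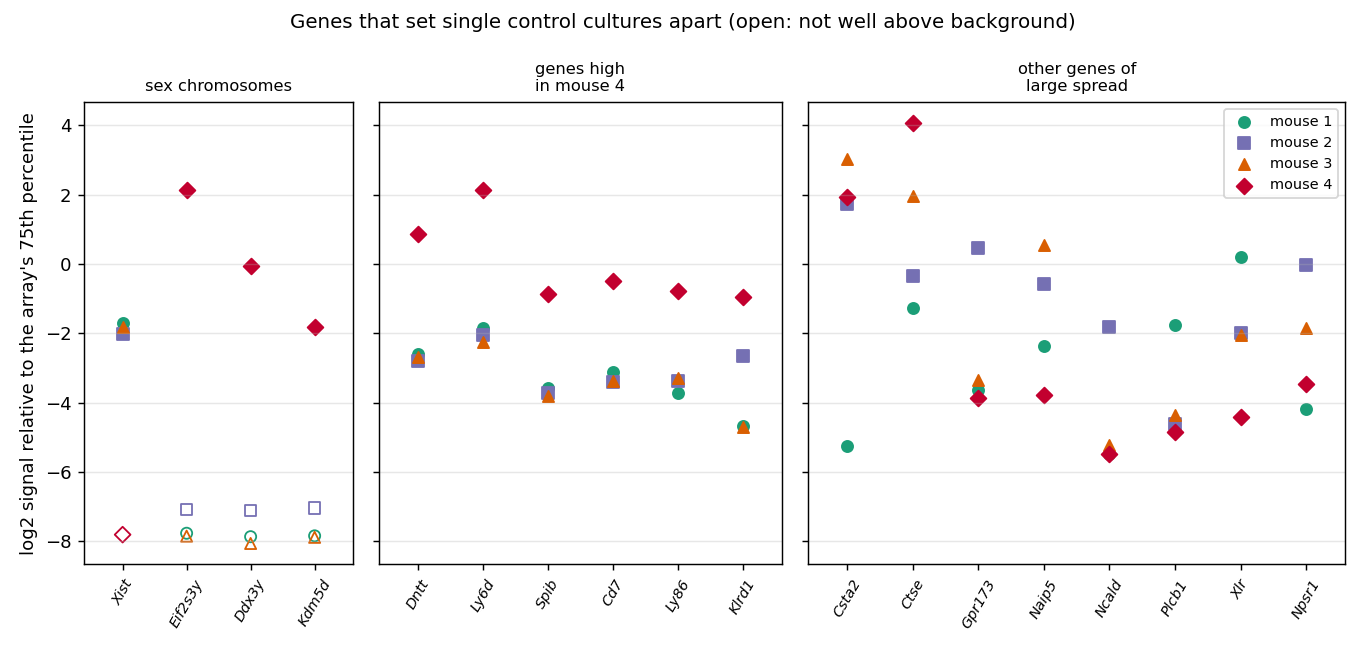
Log2 signal of each gene's brightest probe relative to each array's 75th percentile (y axis), 1 symbol per mouse. Shown are sex-linked genes, genes high in mouse 4 and other genes of large spread. Open symbols mark arrays where no probe of the gene was well above background. Eif2s3y, Ddx3y and Kdm5d are filled in mouse 4 alone and Xist in mice 1 to 3, and Dntt and Ly6d lie at 0.85 and 2.13 in mouse 4.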

How the data were processed

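RNA from the 4 control cultures (400 ng, Cy3) was read on single-colour Agilent arrays, and the spot intensity was processed with Agilent Feature Extraction 10.1, per the submitters' processing notes. The deposited intensity was used as log2 minus each array's 75th percentile. Control spots and the 97 to 117 spots per array marked as non-uniform or population outliers were left out, spots were averaged per probe, and a probe counted as well above background where at least 50% of its spots were. Of 41174 probes, 24375 were named through their RefSeq accession (GRCm38.p6), and 1528 RefSeq accessions had no match and kept their own ID. Where several probes measured a gene, they often disagreed: of 5779 such genes, 601 had a probe seen on all arrays and another on none.

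The authors' deposited value table is on a log2 scale. Its differences between mice matched those of the spots over 14258 probes (r 1.00, slope 1.00), so scale and direction are known, but its rows are centred per probe in a way that stays unknown. Its column medians were 0.05, 0.11, 0.10 and -0.13 in mice 1 to 4, and 4 columns of other samples were not used.

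The slide test used limma 3.58.1 in R 4.3.3 (lmFit, eBayes, two-sided, Benjamini-Hochberg) and was tested on simulated data. The simulated noise was independent between genes, so it did not mimic a mouse that differs in many genes at once. The median signal of raw spots replaced the mean signal in the normexp alternative (offset 50). Alternatives covered the detection flag, bright limit, probe summary, normalization, background correction, filter and each left-out mouse. The arrays and gene lists were chosen with earlier results of these data known. Named genes are Runx and cytokine receptor genes, up to 4 bright and 3 undetected members per list, the 20 brightest, the 20 with the largest SD and the sex chromosome genes, and further list members named for their role were chosen after their values were seen. Some genes are not reported here.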

Additional observations from a re-analysis of the deposited data

Results flagged for a closer look

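Of 150 values per mouse looked at (129 genes and the medians of 21 lists), 30 had a lowest or highest mouse whose gap to the nearest other passed Dixon's 95% critical value for 4 samples. Chance passes about 1 in 20 groups, and over all genes seen on all arrays 836 of 11431 (7.31%) passed. The values looked at were partly chosen for their spread: 14 of the 30 belong to the genes of largest SD or of the sex chromosomes, so their number is no measure of how often mice differ. The outlying mouse was mouse 4 in 22 of them, mouse 1 in 2, mouse 2 in 4 and mouse 3 in 2. All values are log2 relative to each array's 75th percentile.

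Among list medians, the megakaryocyte and platelet genes were highest in mouse 4 at 2.81 (2.09 to 2.20 in the others), and the B cell genes highest there at -1.93 (-3.72 to -3.51). The B cell value is the middle rank of 13 genes, which in mouse 4 is Cd72, and the median deviation of the same genes in mouse 4 was 0.08, with 6 highest and 5 lowest there. The inflammatory cytokine genes were lowest in mouse 4 at -0.54 (0.13 to 0.24), and the genes of other organs highest in mouse 3 at -3.65 (-3.87 to -3.84), with a median deviation of 0.06 in mouse 3.

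Lowest in mouse 4 were Ccl4 at 2.59 (4.61 to 4.84 in the others), Cd93 at 3.93 (4.98 to 5.07), Csf2ra at 4.24 (5.08 to 5.23) and Csf2rb at 0.025 (0.77 to 0.91). So were Fcer1g, the common Fc receptor chain, at 4.23 (5.07 to 5.23), Mpo at 8.63 (9.08 to 9.11), the oxidase subunit Ncf4 at 4.79 (5.50 to 5.62) and Spp1 at 4.78 (6.13 to 6.29). Xist was at -7.81 (-2.01 to -1.71).

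Highest in mouse 4 were Dntt at 0.85 (-2.80 to -2.59), Ly6d at 2.13 (-2.26 to -1.85), Spib at -0.86 (-3.83 to -3.58) and Cd7 at -0.50 (-3.42 to -3.11). Ly86 lay at -0.79 (-3.72 to -3.31), Sema6d at -0.93 (-3.76 to -3.31) and Treml1, a receptor of platelet granules, at 5.33 (4.33 to 4.46). The Y-linked Ddx3y, Eif2s3y and Kdm5d lay at -0.060, 2.12 and -1.83.

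Other mice stood apart in fewer genes. Csta2 was lowest in mouse 1 at -5.26 and Plcb1 highest there at -1.76. In mouse 2, Gpr173 was highest at 0.47, Ncald at -1.83 and the ribosomal protein genes Rplp1 and Rps20 at 8.81 (8.42 to 8.46) and 8.68 (8.32 to 8.34). Krt14, a keratin, was highest in mouse 3 at -3.03 (-3.77 to -3.66).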

How the results depend on the processing

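No paired analysis was possible because a single group was analysed and the mice on the 2 slides share no replicate number. The number of genes well above background on all 4 arrays, named or not, was 16675. It was 20826 with the scanner's positive-and-significant flag, 16651 by the brightest probe alone, 11441 among genes with a symbol, and 16691 to 17356 with a mouse left out. The count of bright genes was 3308, 1654 with the top 5% as the limit (fewer probes by construction), 2636 by the median of a gene's probes and 3333 to 3439 with a mouse left out. The median SD between mice was 0.173 over these genes, 0.150 with normexp, 0.332 with no filter on dim probes, and 0.123 to 0.182 with a mouse left out, lowest without mouse 4. Genes called between slides numbered 0 under every normalization, background correction and filter tried, and 0 to 476 with a mouse left out, 15 without mouse 4 and 476 without mouse 3. The cause of these changes was not tested. Over the lists and alternatives, the count of bright members moved in 10 of 132 comparisons and the median level in 21 of 132. Dim values limit the detail: the SD was largest in the dim band, and genes not well above background have only a bound.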
